A study of Homo sapiens with 4 samples.

Results

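The genes described here are 55 regulators of DNA methylation and chromatin, chosen by symbol, out of 18132 genes with a value on the array. Each gene was represented by the brightest of the probe sets paired with it alone, taking the mean of 4 arrays, and all 55 had such a probe set. The arrays came from Caco-2 and HCT116, established lines of human colorectal cancer, grown in high-glucose DMEM with serum. Each line was transfected with RNAiMAX lipid for 3 days with either a negative control siRNA or an siRNA against BORIS. BORIS is the protein of CTCFL, a germline paralog of the insulator protein CTCF. The 4 groups were therefore Caco-2 with control siRNA, Caco-2 with BORIS siRNA, HCT116 with control siRNA and HCT116 with BORIS siRNA, and each held 1 PrimeView array. A within-line siRNA difference therefore compares 1 array with 1 array, and no p-value or replicate spread goes with it. All values below are log2 expression values, all differences are differences of log2 values, and siRNA differences are BORIS siRNA minus control siRNA.

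DNA methyltransferases add methyl groups to cytosine, TET enzymes oxidise them, and methyl-CpG binding proteins read them. Histone methyltransferases and acetyltransferases write marks that demethylases and deacetylases remove, and ATP-dependent remodellers of the SWI/SNF and CHD families move nucleosomes. In colorectal cancer, promoter hypermethylation silences tumour suppressor genes, and CTCF and BORIS have both been linked to the methylation state of the sites they bind.

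Array medians lay between 5.46 and 5.48. Background was set at the 95th percentile of probe sets for olfactory receptors, 4.80 to 5.15, because these receptors are not normally made outside sensory tissue. The brightest CTCFL probe set read 5.07 and 5.09 in Caco-2 and 5.07 and 4.93 in HCT116, below the median of every array, so the extent of the knockdown could not be measured. Among 12 colorectal epithelial markers, 3 were at background on each Caco-2 array and 6 on each HCT116 array, and EPCAM, KRT8 and KRT18 were bright on all 4. All 7 fibroblast markers were at background on every array. Of 6 blood cell markers with a value, PTPRC, CD3E and CD14 were at background on all 4 arrays, HBB read 6.38 to 6.64, and LYZ (13.26 and 13.12) and ITGAM (5.92 and 5.12) were above background in Caco-2 alone. Of 5 endothelial markers, PECAM1, CDH5 and TEK were at background, while VWF read 5.37 to 6.05 and KDR 5.36 to 5.42. The part of these markers in the differences below was not tested. The 24 poly-A spike-in probe sets averaged 6.78 with control and 6.71 with BORIS siRNA in Caco-2, and 7.57 and 8.44 in HCT116. They differed by -0.07 between siRNAs in Caco-2 and by 0.87 in HCT116, and were higher on both HCT116 arrays than in Caco-2. Their part in the siRNA and line differences below was not tested.

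Expression in a line was called where the probe set was at or above the array median on 1 or both of its arrays. By this rule 53 of the 55 genes were expressed in Caco-2 and 52 in HCT116. TET1, an initiator of cytosine demethylation, and KDM6B, a demethylase of the Polycomb mark on histone H3, lay in the background of all 4 arrays, so no fold is given. EP300, a histone acetyltransferase, was expressed in Caco-2 and at background on both HCT116 arrays. Of the 53 genes expressed in at least 1 line, 51 lay above background on all 4 arrays, the exceptions being DNMT3A and EP300, and the values of the 53 ran from 4.29 to 11.48.

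**Figure D1:**
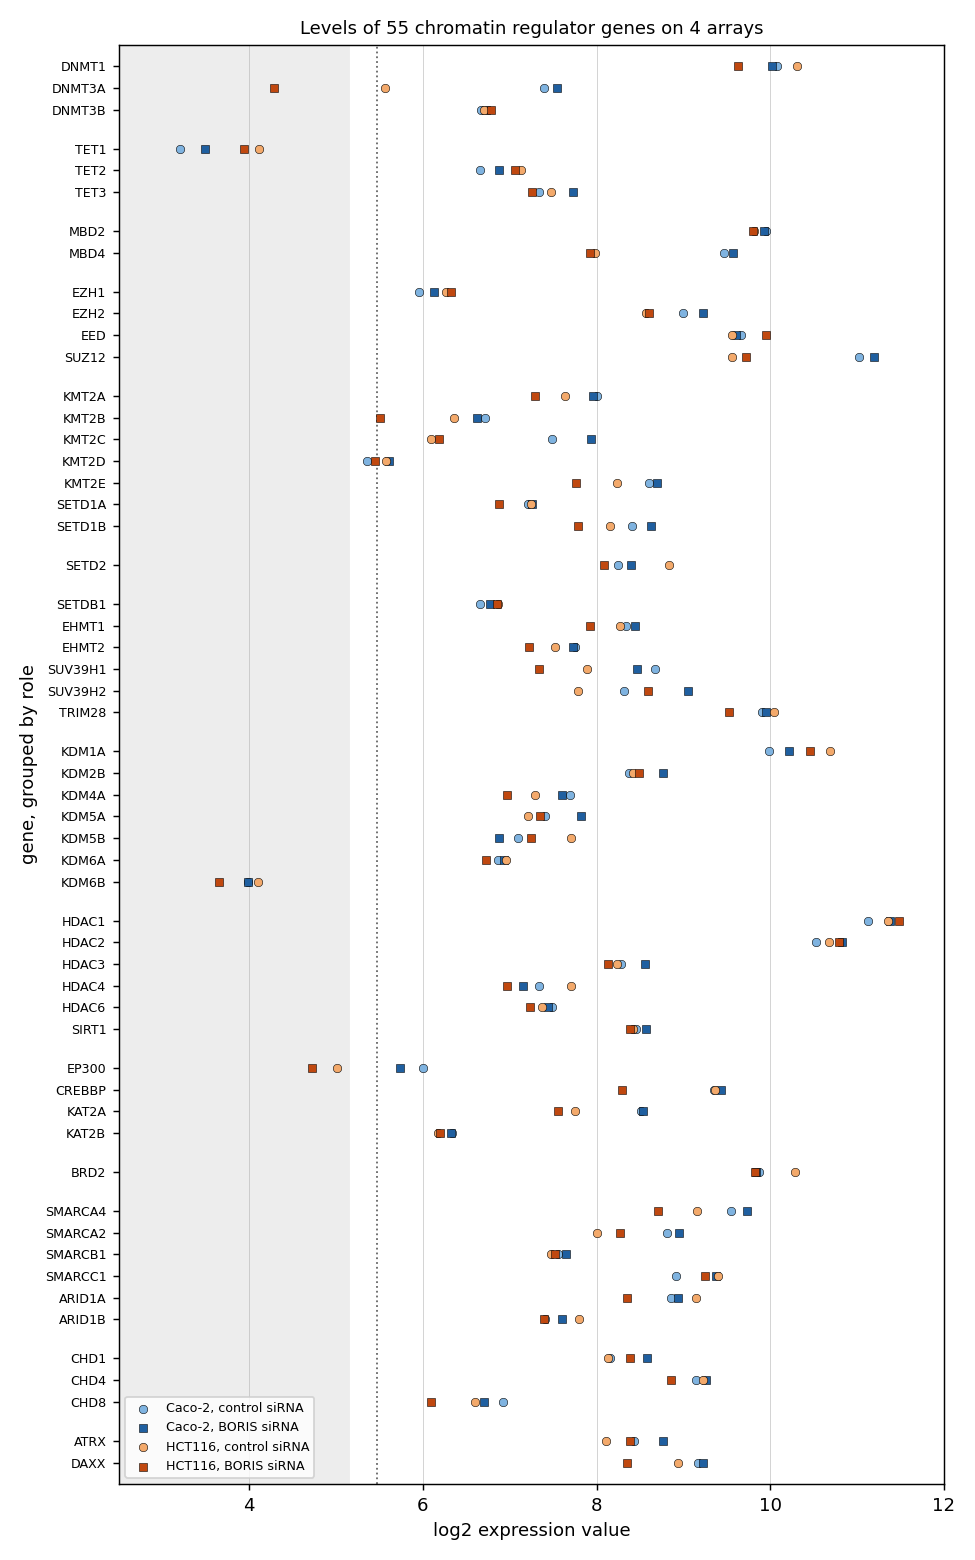
Log2 expression values (x axis) of the 55 genes (y axis, grouped by role) on the 4 arrays, 1 point per array; the dotted line marks the mean of the array medians and the grey band values up to the highest background level, 5.15. DNMT3A, MBD4, SUZ12, KMT2C and EP300 show both HCT116 arrays below both Caco-2 arrays, and TET1 and KDM6B lie inside the band on all 4.

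The first comparison asked how these genes differed between BORIS and control siRNA in each line. In Caco-2, 38 of 53 expressed genes were above 0 and 15 below, where 50.5% of all 10389 expressed genes were above 0 and 49.4% below. Their median was 0.105, against 0.003 for all expressed genes, and 41 of the 53 lay within 0.25 of 0. In HCT116 the larger share was on the other side: 36 of 52 were below 0, where 55.4% of all 10631 expressed genes were, and 16 above, where 44.5% were, with a median of -0.201 against -0.048. At 1.5-fold or more, 1 of 53 genes was higher in Caco-2, where 2.78% of all expressed genes were, and 0 were lower, where 1.14% were (3.92% in either direction). In HCT116, 8 of 52 were lower, where 9.18% of all expressed genes were, and 1 was higher, where 4.36% were. In either direction 9 of 52 passed, where 13.5% of all did, so the share past that fold lay near the background. At 2-fold or more, 2 of 52 were lower in HCT116, where 1.45% of all genes were, and 0 higher, where 0.583% were. In Caco-2, 0 were higher, where 0.404% were, and 0 lower, where 0.0481% were. DNMT3A, 1 of those 2 in HCT116, had its BORIS siRNA value below background. With background in its place the difference was -0.40, and 7 genes were lower at 1.5-fold. At 1.5-fold the same gene, the histone H3 lysine 9 methyltransferase gene SUV39H2, was the higher one in both lines.

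**Figure D2:**
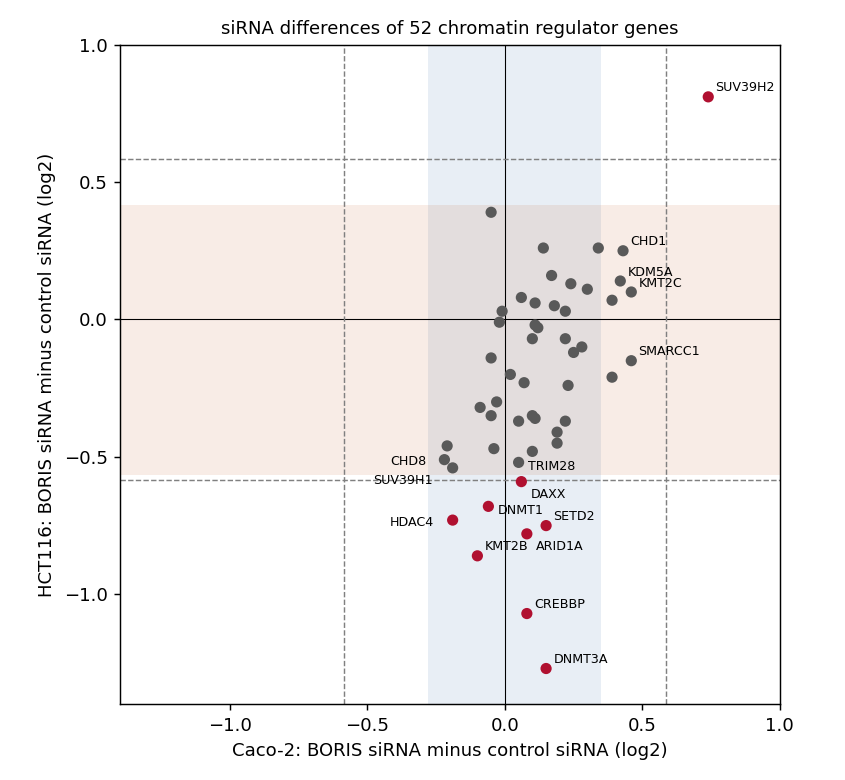
Difference between BORIS and control siRNA in Caco-2 (x axis, log2) and in HCT116 (y axis, log2) for the 52 genes expressed in both lines; shaded bands hold the middle 80% of all expressed genes of each line, dashed lines mark 1.5-fold and red points passed it. SUV39H2 stands alone at 0.74 and 0.81, and 8 genes lie below the dashed line of HCT116 with Caco-2 differences between -0.19 and 0.15.

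Of the 52 genes expressed in both lines, 24 were higher in Caco-2 and lower in HCT116, where 25.8% of all 9855 genes expressed in both lines were, and 2, EED and KAT2B, did the opposite, where 19.8% did. A further 14 were higher in both lines, where 24.4% of all genes were, and 12 lower in both, where 29.8% were. Whether the siRNA difference itself differed between the lines could not be tested with 1 array per group. Pearson's r between the lines was 0.53 across the 52 genes and 0.17 across the 9855; genes are not independent replicates, and the arrays of a line are shared by all genes.

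By the deposited values, the genes that stood farthest out were SUV39H2, the DNA methyltransferase gene DNMT3A and the acetyltransferase gene CREBBP. The last pair were the ones at 2-fold or more in HCT116, but DNMT3A stood at -0.40 with background in place of its lowest value. The promoter windows of these genes are shown because BORIS, like CTCF, binds DNA through zinc fingers with a G-rich core motif. Each window runs from 250 bases before to 50 bases after the RefSeq start (build GRCh38.p14), 5′ to 3′ on the gene's strand, with AGGGGGC, or its reverse complement, in capitals.
SUV39H2, chr10:14878616-14878915, plus strand: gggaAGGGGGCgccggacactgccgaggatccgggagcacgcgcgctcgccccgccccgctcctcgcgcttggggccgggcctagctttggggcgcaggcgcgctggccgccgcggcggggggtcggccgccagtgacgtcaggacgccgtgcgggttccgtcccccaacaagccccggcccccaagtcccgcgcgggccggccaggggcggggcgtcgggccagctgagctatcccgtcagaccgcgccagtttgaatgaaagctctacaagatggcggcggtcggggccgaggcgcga
CREBBP, chr16:3880664-3880963, minus strand: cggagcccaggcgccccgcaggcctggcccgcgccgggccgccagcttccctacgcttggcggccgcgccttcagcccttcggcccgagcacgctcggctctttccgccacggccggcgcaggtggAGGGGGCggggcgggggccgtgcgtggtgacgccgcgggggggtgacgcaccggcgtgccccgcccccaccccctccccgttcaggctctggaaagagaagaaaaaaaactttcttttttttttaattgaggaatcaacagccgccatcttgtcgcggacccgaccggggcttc
DNMT3A, chr2:25342434-25342733, minus strand: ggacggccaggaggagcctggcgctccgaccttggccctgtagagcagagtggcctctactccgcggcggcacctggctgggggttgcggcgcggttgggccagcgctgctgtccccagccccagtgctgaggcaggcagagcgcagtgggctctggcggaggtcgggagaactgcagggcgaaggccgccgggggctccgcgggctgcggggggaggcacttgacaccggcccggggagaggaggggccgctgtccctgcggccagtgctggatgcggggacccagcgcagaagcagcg
The windows of SUV39H2 and CREBBP each held 1 match to AGGGGGC and that of DNMT3A held 0. RefSeq windows were matched for 50 of the 55 genes, and 17 of them, 34.0%, held AGGGGGC on either strand, against 14.1% of all 27305 windows and 20.1% of the 9228 windows of genes tested on these arrays. The shorter CCCTC, searched on both strands and able to share letters with the first motif, was in 86.0% of the 50 windows, in 70.3% of all windows and in 79.9% of those of tested genes. The median number of CG pairs per window was 29.5 for the 50 genes, 14.0 for all windows and 26.0 for tested genes. Of the 9 genes at 1.5-fold or more in HCT116, 8 had a window and 3, ARID1A, SUV39H2 and CREBBP, held AGGGGGC. A match is a match of letters and does not show binding.

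By their brightest probe sets, DNMT3A and DNMT1 were lower with BORIS siRNA in HCT116, while DNMT3B differed little. DNMT3A, a de novo methyltransferase, read 7.39 with control and 7.54 with BORIS siRNA in Caco-2, and 5.56 and 4.29 in HCT116. The HCT116 difference was -1.27 as deposited, but the BORIS siRNA value lay below the background of its array, so that with background in its place the difference was -0.40. Its other bright probe set, below the array median in HCT116, differed there by -0.42 and in Caco-2 by 0.42. DNMT1, the maintenance methyltransferase that copies methylation after replication, read 10.08 and 10.02 in Caco-2 and 10.31 and 9.63 in HCT116, where the difference was -0.68. Its second probe set read 7.92 and 7.88 in HCT116, a difference of -0.04, so the HCT116 difference was seen by 1 of its 2 probe sets. DNMT3B, the other de novo enzyme, read 6.67 and 6.73 in Caco-2 and 6.70 and 6.78 in HCT116, by its brightest probe set, while its other 5 bright probe sets differed by -0.36 to 0.61 in Caco-2 and by -0.19 to 0.06 in HCT116.

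Among the enzymes and proteins that act on methylated cytosine, differences between siRNAs were small. TET2 and TET3 differed by 0.22 and 0.39 in Caco-2 and by -0.07 and -0.21 in HCT116. The reader gene MBD2, a subunit of a nucleosome remodelling and deacetylase complex, differed by -0.02 and -0.01, and MBD4, a DNA glycosylase that repairs mismatches arising from methylated cytosine, by 0.10 and -0.07. By the brightest probe set none of these 4 genes reached 1.5-fold in either line, but a dimmer MBD4 probe set read 5.66 and 6.71 in Caco-2, a difference of 1.05, where its other 4 gave -0.06 to 0.10.

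Polycomb repressive complex 2 methylates histone H3 at lysine 27. By their brightest probe sets, none of its 4 genes here was below 0 in HCT116, where 55.4% of all expressed genes were. The catalytic subunit genes EZH1 and EZH2 differed by 0.18 and 0.22 in Caco-2 and by 0.05 and 0.03 in HCT116. A second bright EZH2 probe set gave 0.23 in Caco-2 and -0.02 in HCT116. SUZ12, a core subunit needed for activity, read 11.02 and 11.19 in Caco-2 and 9.56 and 9.72 in HCT116, differences of 0.17 and 0.16. All 3 of its probe sets were higher with BORIS siRNA in both lines. EED, the subunit that binds the methylated lysine, differed by -0.05 and 0.39.

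The lysine 4 mark of histone H3 lies at promoters and enhancers. Of its 7 methyltransferase genes here, 5 were above 0 in Caco-2, where 50.5% of all expressed genes were. In HCT116, 6 of the 7 were below 0, where 55.4% of all expressed genes were. Their medians were 0.10 in Caco-2 and -0.37 in HCT116. KMT2B read 6.72 and 6.62 in Caco-2 and 6.36 and 5.50 in HCT116, a difference of -0.86 from the only 1 of its 3 probe sets that was above the array median. KMT2E, a family member without known catalytic activity, differed by -0.48 in HCT116, and all 6 of its bright probe sets were lower there. KMT2C, a catalytic subunit of an enhancer-directed complex, was the exception in HCT116 at 0.10, and in Caco-2 it stood at 0.46 with all 5 probe sets higher. The remaining genes, KMT2A, KMT2D, SETD1A and SETD1B, differed by -0.05 to 0.25 in Caco-2 and by -0.37 to -0.12 in HCT116. SETD2, which trimethylates lysine 36 along transcribed genes, read 8.25 and 8.40 in Caco-2 and 8.83 and 8.08 in HCT116. The control HCT116 array was the high one, and the difference of -0.75 came from an _s_at probe set, a kind that can bind several transcripts; the other bright probe set gave -0.24.

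Methyltransferase genes of lysine 9, a mark of heterochromatin, showed opposite values for 2 paralogs. SUV39H2 read 8.31 and 9.05 in Caco-2 and 7.79 and 8.59 in HCT116, differences of 0.74 and 0.81, or 1.67-fold and 1.75-fold. Both arrays with BORIS siRNA were above the control array of their line. The second SUV39H2 probe set did not show this: it read 5.75 and 5.72 in Caco-2 and 5.41 and 4.92 in HCT116, where the last value was at background. Its paralog SUV39H1 read 8.67 and 8.47 in Caco-2 and 7.89 and 7.34 in HCT116, differences of -0.19 and -0.54. In HCT116, 2 of the 4 bright SUV39H1 probe sets were lower and the others higher. SETDB1, the enzyme recruited by the corepressor TRIM28 to silence retroelements, differed by 0.11 and -0.02, and TRIM28 by 0.05 and -0.52. EHMT1 and EHMT2, which form a heterodimer, differed by 0.10 and -0.03 in Caco-2 and by -0.35 and -0.30 in HCT116.

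By the brightest probe set, none of the 6 expressed histone demethylase genes reached 1.5-fold in either line, but dimmer probe sets of KDM5B and KDM2B did. KDM5B, a lysine 4 demethylase, read 7.09 and 6.88 in Caco-2 and 7.71 and 7.25 in HCT116, lower with BORIS siRNA in each line. Its other 2 bright probe sets were also lower in HCT116, at -0.31 and -0.67, but higher in Caco-2, at 0.26 and 0.08. Its paralog KDM5A stood at 0.42 in Caco-2 and 0.14 in HCT116. All 4 bright KDM5A probe sets were higher in Caco-2, but 1 of 4 was in HCT116. KDM1A, a lysine 4 demethylase of corepressor complexes, differed by 0.23 and -0.24, the lysine 36 demethylase gene KDM2B by 0.39 and 0.07, KDM4A by -0.09 and -0.32 and KDM6A by 0.07 and -0.23. In Caco-2, 4 of the 5 bright KDM2B probe sets were higher, 1 of them by 0.63, and the other gave -0.16.

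By their brightest probe sets, deacetylase genes differed little, with 1 exception. HDAC1 and HDAC2, catalytic subunits of the same corepressor complexes, were higher by 0.24 and 0.30 in Caco-2 and by 0.13 and 0.11 in HCT116. HDAC4, a deacetylase that shuttles between nucleus and cytoplasm, read 7.34 and 7.15 in Caco-2 and 7.70 and 6.97 in HCT116, where the difference was -0.73. That value came from the only 1 of its 6 probe sets above the array median, which is of the _s_at kind, and the other 5 lay at background on all 4 arrays. HDAC3, HDAC6 and SIRT1 differed by -0.05 to 0.28 in Caco-2 and by -0.14 to -0.03 in HCT116. Of the 4 bright HDAC6 probe sets, 3 were lower in HCT116 and the other stood at 0.03. An _s_at probe set among the 3 read 7.17 and 6.54 there, a difference of -0.63, past 1.5-fold, and an _x_at probe set gave -0.42.

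The acetyltransferase gene CREBBP, a transcriptional coactivator paralogous to EP300, had all its probe sets above the array median. It read 9.35 and 9.43 in Caco-2 and 9.36 and 8.29 in HCT116, so the HCT116 array with BORIS siRNA was low and the other 3 lay within 0.08. All 5 bright probe sets were lower in HCT116, at -1.08, -1.07, -0.99, -0.57 and -0.17, the first 3 being of the _s_at kind. EP300 read 6.00 and 5.74 in Caco-2, a difference of -0.26. KAT2A and KAT2B, catalytic subunits of the SAGA and ATAC complexes, differed by 0.02 and -0.01 in Caco-2 and by -0.20 and 0.03 in HCT116. BRD2, a bromodomain reader of acetylated histones, stood at -0.04 and -0.47.

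The 6 SWI/SNF subunit genes among the 55 were all above 0 in Caco-2, between 0.08 and 0.46, where 50.5% of all expressed genes were. In HCT116, 4 of the 6 were below 0, where 55.4% of all expressed genes were. ARID1A, the DNA-binding subunit that is often inactivated in tumours, read 8.86 and 8.94 in Caco-2 and 9.14 and 8.35 in HCT116. Its HCT116 difference was -0.78, and its second bright probe set there gave -0.67. The ATPase gene SMARCA4 differed by 0.19 and -0.45, with all 6 probe sets lower in HCT116, whereas the alternative ATPase gene SMARCA2 read 8.81 and 8.95 in Caco-2 and 8.00 and 8.27 in HCT116, differences of 0.14 and 0.26. SMARCC1, a scaffold subunit, stood at 0.46 and -0.15, ARID1B at 0.19 and -0.41 and SMARCB1 at 0.11 and 0.06.

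Among CHD remodeller genes, CHD1, which binds lysine 4 methylation, read 8.15 and 8.58 in Caco-2 and 8.13 and 8.38 in HCT116, higher with BORIS siRNA in each line. CHD8, a remodeller that binds CTCF, read 6.92 and 6.70 and then 6.60 and 6.09, lower in each line. CHD4, the ATPase of the nucleosome remodelling and deacetylase complex, differed by 0.11 and -0.36. ATRX and DAXX together deposit the histone variant H3.3 at heterochromatin, yet stood on opposite sides in HCT116. ATRX read 8.43 and 8.77 in Caco-2 and 8.11 and 8.38 in HCT116, with all 4 bright probe sets higher in both lines. DAXX read 9.17 and 9.23 in Caco-2 and 8.94 and 8.35 in HCT116, a difference of -0.59, and its other 2 probe sets gave -0.32 and -0.41.

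The probe sets of a gene did not always show the same sign. Among 33 genes with 2 or more bright probe sets in HCT116, 20 had all of them on one side of 0, and among 35 in Caco-2, 15 did. As means over all probe sets of a gene, 3 genes stood at 1.5-fold or more in HCT116, CREBBP at -0.78, ARID1B at -0.62 and SMARCA4 at -0.59, and 0 in Caco-2, where SUV39H2 stood at 0.36.

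**Figure D3:**
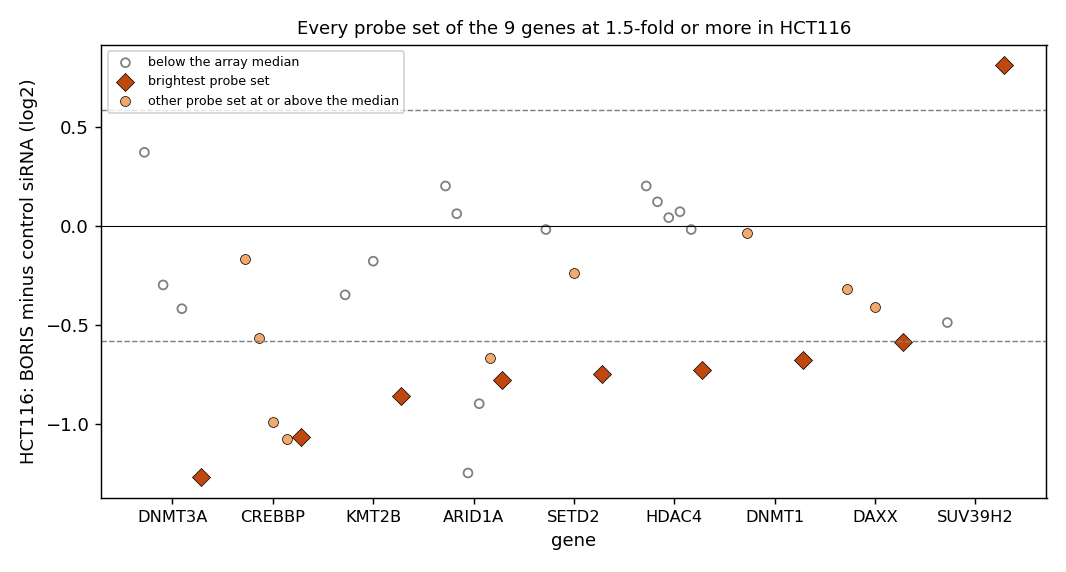
Difference between BORIS and control siRNA in HCT116 (y axis, log2) for every probe set of the 9 genes at 1.5-fold or more (x axis); diamonds are the brightest probe set, filled circles others at or above the array median, open circles those below it, and dashed lines mark 1.5-fold. CREBBP has 3 probe sets beyond -0.9 and ARID1A 2 bright ones below -0.6, while DNMT3A, SUV39H2, HDAC4 and KMT2B rest on 1 probe set above the median.

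Many of these genes are long, and the siRNA difference moved with gene length over all expressed genes. In Caco-2 the median difference was -0.083 in the shortest quartile by genomic length and 0.114 in the longest, which held 26 of the 53 genes. There, 19 of the 26 were above 0, where 68.7% of all genes in that quartile were. In HCT116 the medians of all expressed genes, from the shortest to the longest quartile, were -0.009, -0.036, -0.038 and -0.125. Those of the chromatin regulator genes were -0.358, -0.336, -0.017 and -0.234, over 4, 8, 15 and 25 genes. The lowest of these medians lay in the shorter quartiles, which hold few of the chromatin regulator genes. With the median of the quartile subtracted, 33 of 53 genes were above 0 in Caco-2 (median 0.075) and 32 of 52 below 0 in HCT116 (median -0.105). The part of gene length in these differences was not tested.

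**Figure D4:**
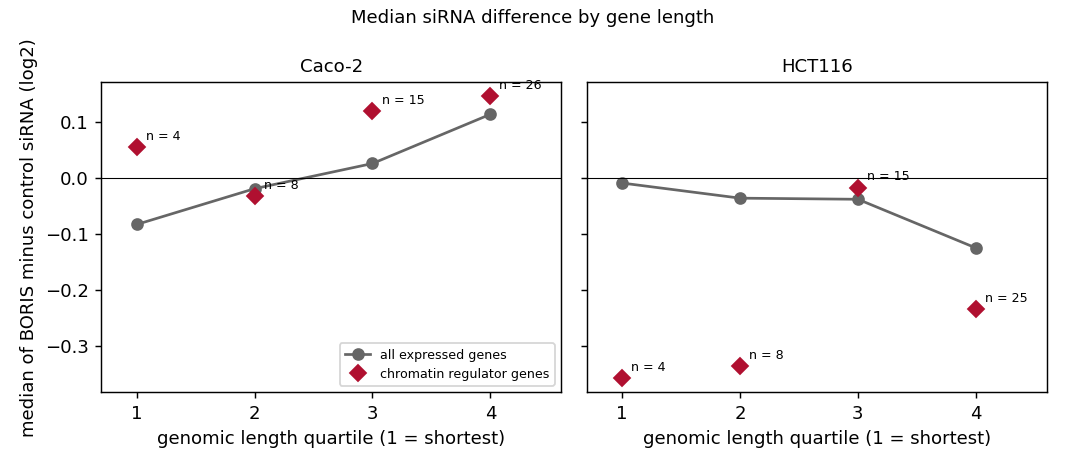
Median difference between BORIS and control siRNA (y axis, log2) by quartile of genomic gene length (x axis) for all expressed genes (grey line) and for the chromatin regulator genes (diamonds, with their number) in each line. The grey line climbs from -0.083 to 0.114 in Caco-2 and ends at -0.125 in HCT116; quartiles with 4 or 8 of the genes rest on few values.

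The second comparison asked whether both lines shared a siRNA difference. In the limma fit on 4 arrays with cell line as a block, 0 of the 53 genes passed an adjusted p of 0.05, where 0.0% of all 11165 genes did, and 1 of the 53 had an unadjusted p under 0.05, where 6.0% of all genes did. That gene was SUV39H2, at 0.77 (standard error 0.17; limma adjusted p = 0.769); by unadjusted p it ranked 32 of 11165. It passed after quantile normalization, at a limma adjusted p of 0.0333, and after a loess correction on mean expression, at 0.0224. It did so under settings where 86 and 112 of all genes passed. There, as in the main fit, its p-values rested more on variance shared over genes than on its 1 residual degree of freedom. Under the other settings its adjusted p lay between 0.674 and 1.0, and with the mean of its probe sets the difference was 0.26 (limma adjusted p = 0.674). Next to SUV39H2, the genes ranked highest by the smaller of their differences in both lines, where these had the same sign, were ATRX, CHD1, SUZ12 and SMARCA2 on the higher side and CHD8, KDM5B, HDAC4, SUV39H1 and KMT2B on the lower side, none of which passed. KDM5A, whose smaller difference also rounds to 0.14, came just after SMARCA2.

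The third comparison was between the lines, HCT116 minus Caco-2, with 2 arrays per line and siRNA as the block in limma. Of 53 genes, 10 passed at a limma adjusted p of 0.05 and all 10 were lower in HCT116, where 19.8% of all tested genes were lower, 19.4% higher and 39.2% either. In all, 38 of 53 lay below 0, where 48.9% of all did, and 19 of 53 had an unadjusted p under 0.05, where 48.0% of all did. The other direction held 0 genes by limma, and 2, KDM1A and KDM5B, with an unadjusted p under 0.05. That split depended on the setting: KDM1A and KDM5B passed as higher after quantile normalization and after the loess correction, KDM1A with the mean of probe sets, and SETD2, KDM1A, KDM5B and BRD2 without the HCT116 BORIS siRNA array. The 10 were DNMT3A, MBD4, SUZ12, KMT2C, KMT2E, SUV39H1, EP300, KAT2A, SMARCA4 and SMARCA2. Labels do not say that the arrays of a line came from separate cultures beyond their siRNA. The residual of a gene, with 1 degree of freedom, is the disagreement of its siRNA difference between the lines. After moderation, the p-values measure the line difference against that disagreement pooled with variance shared over all genes. They do not measure it against a spread between replicate cultures. For SUZ12, with siRNA differences of 0.17 and 0.16, the standard error of 0.14 rested mainly on the shared variance.

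DNMT3A was lower in HCT116 by the widest margin of these genes. The fit gave -2.54 (standard error 0.34; limma adjusted p = 0.00198), and -2.11 with the HCT116 value at background raised to that level. Both Caco-2 arrays, at 7.39 and 7.54, lay above both HCT116 arrays, and a second probe set, bright in Caco-2 and at background on both HCT116 arrays, read 6.67 and 7.09 in Caco-2 and 5.03 and 4.62 in HCT116. DNMT1 differed by -0.08 (limma adjusted p = 0.768) and DNMT3B by 0.04 (0.887). For DNMT3B the brightest probe set stood apart from the rest: the other 5 bright ones read higher in HCT116, by 0.72 to 1.21.

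MBD4 read 9.47 and 9.57 in Caco-2 and 7.98 and 7.92 in HCT116, a fitted difference of -1.57 with a standard error of 0.18 (limma adjusted p = 0.000976), and all 5 of its bright probe sets were lower. SUZ12 gave -1.47 with a standard error of 0.14 (limma adjusted p = 0.000566), the same on the control arrays, -1.46, as on the BORIS siRNA arrays, -1.47. Its partners were not called: EZH2 stood at -0.52 (limma adjusted p = 0.0557), EED at 0.12 and EZH1 at 0.25. KMT2C read 7.49 and 7.94 in Caco-2 and 6.09 and 6.19 in HCT116, a fitted difference of -1.57 with a standard error of 0.19 (limma adjusted p = 0.00144), and its other 4 probe sets also read lower there, each at background on 1 or 2 HCT116 arrays.

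The acetyltransferase genes EP300 and KAT2A were lower in HCT116. EP300 read 5.01 and 4.72 there, at background on both arrays, so its fitted -1.01 (limma adjusted p = 0.0149) became -0.75 with background in place of those values. KAT2A read 8.51 and 8.53 in Caco-2 and 7.75 and 7.55 in HCT116, a difference of -0.88 with a standard error of 0.18 (limma adjusted p = 0.0101). Each of these 2 genes has 1 probe set.

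Both SWI/SNF ATPase genes were lower in HCT116. SMARCA4 read 9.55 and 9.73 in Caco-2 and 9.16 and 8.71 in HCT116, a difference of -0.71 (limma adjusted p = 0.0362), and SMARCA2 gave -0.75 (0.0167). All 6 bright SMARCA4 and all 7 bright SMARCA2 probe sets were lower. SUV39H1 differed by -0.95 (limma adjusted p = 0.00868), but by -0.25 (0.319) once _s_at and _x_at probe sets were dropped. KMT2E read 8.60 and 8.70 in Caco-2 and 8.24 and 7.76 in HCT116, a difference of -0.65 (limma adjusted p = 0.0474). With no siRNA block and 3 arrays, the calls of DNMT3A, MBD4, SUZ12 and KMT2C were kept whichever array was left out. KMT2E, SUV39H1, EP300, KAT2A, SMARCA4 and SMARCA2 lost theirs without the Caco-2 control array, which left 4 calls, and KMT2E, KAT2A, SMARCA4 and SMARCA2 without the Caco-2 BORIS siRNA array, which left 6, while 15 genes passed without the HCT116 BORIS siRNA array, where KMT2E did not, and 22 genes passed without the HCT116 control array. The number called among all 11165 genes moved as well, to 2782 and 2679 without the Caco-2 control and BORIS siRNA arrays and to 5313 and 4809 without the HCT116 control and BORIS siRNA arrays, from 4373. Beside these values, 6 of 20 proliferation genes were lower in HCT116, where 19.8% of all genes were, and 1 higher, where 19.4% were. Their median was -0.228, and the part of proliferation genes in the differences was not tested.

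**Figure D5:**
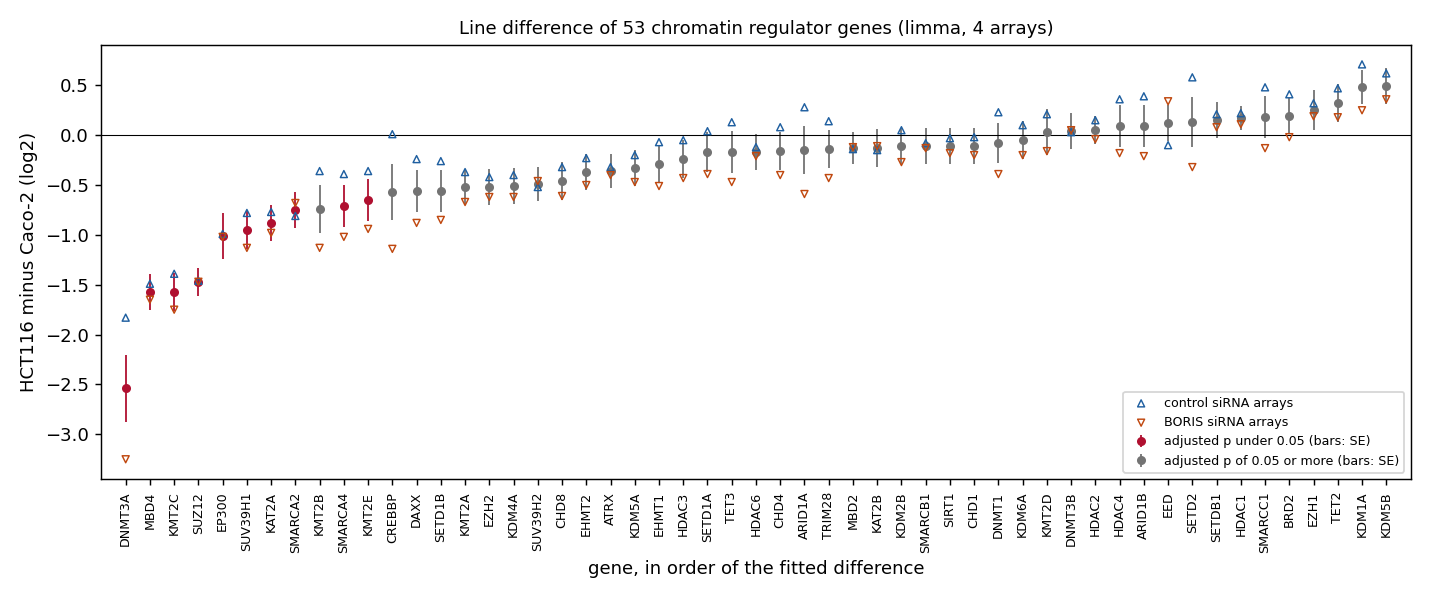
Difference between the lines, HCT116 minus Caco-2 (y axis, log2), for 53 genes in order (x axis); circles are limma estimates with standard errors, red where the adjusted p was under 0.05, and open triangles the values on the control and the BORIS siRNA arrays alone. All 10 red points lie below 0, from -2.54 for DNMT3A to -0.65 for KMT2E.

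Of 15 pairs of paralogs among the genes, 13 had both members tested, and 0 pairs had both members past the test in opposite directions. SMARCA4 and SMARCA2 were the 1 pair with both past the test. In HCT116 the members of a pair could differ from each other in their siRNA difference: DNMT3A minus DNMT3B and SUV39H1 minus SUV39H2 were each -1.35, EP300 minus CREBBP 0.78 and SMARCA4 minus SMARCA2 -0.71, without a test and with DNMT3A and EP300 at background on at least 1 array.

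Another 97 chromatin regulators were listed for context, and 88 had a value. In Caco-2, 56 of 87 expressed ones were above 0, where 50.5% of all expressed genes were, with a median of 0.058. At 1.5-fold or more, 2 were higher, where 2.78% of all were, and 0 lower, where 1.14% were. In HCT116, 58 of 87 were below 0, where 55.4% of all were, with a median of -0.167. At that fold 9 were lower, where 9.18% of all were, and 2 higher, where 4.36% were. SMARCA1, an ISWI remodeller ATPase, read 8.60 and 9.32 in Caco-2 and 9.36 and 10.10 in HCT116, differences of 0.72 and 0.74. BAZ1A, a subunit that pairs with ISWI ATPases, stood at 0.81 and 0.54, and MTF2, an accessory subunit of Polycomb complex 2, at 0.52 and 0.69. HIRA, the chaperone that deposits histone H3.3 in active genes, read 11.12 and 10.83 in Caco-2 and 8.61 and 7.34 in HCT116, a siRNA difference of -1.27 in HCT116 and a line difference of -2.99 (limma adjusted p = 0.000295). PHF8 at -1.01 and RCOR1 at -0.95 followed in HCT116, and ZBTB33 at 0.50 in Caco-2. None of the 87 tested ones passed the limma test of a shared siRNA difference, where 0.0% of all genes did. In that test 5 of the 87 had an unadjusted p under 0.05, where 6.0% of all genes did. SMARCA1 and HIRA passed after the loess correction, at limma adjusted p of 0.0341 and 0.0208, and after quantile normalization, at 0.0399 and 0.028. The limit given for SUV39H2 under these settings holds here too. Between lines, 11 of the 87 were lower in HCT116 by limma, where 19.8% of all genes were, and 7 higher, where 19.4% were. Among them were SMARCC2 at -1.61, HDAC8 at -1.27 and PCGF6 at 1.44.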

How the data were processed

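Total RNA of 4 samples was labelled as biotin cRNA with a 3' in vitro transcription kit and hybridised to PrimeView arrays, per the labels' protocols. The values the authors deposited are log2 expression values for 49395 probe sets, a unit that follows from their range and from array quartiles within 0.129 of each other. Background correction, normalization and summarisation are not stated in the sources used. The number of arrays limits the precision.

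Probe sets were named through the platform annotation, with 44988 paired with 1 gene, 1832 with several and 2575 with none or controls. Looking symbols up by Entrez ID in RefSeq GRCh38.p14 changed 0 of them. The genes and lists were chosen with earlier results of these data known. Differences were computed within each line. limma 3.58.1 in R 4.3.3 (trended eBayes after lmFit, adjusted by Benjamini-Hochberg over 11165 genes expressed in either line) tested the siRNA and line terms, with 1 residual degree of freedom. In 5 simulated sets of 11165 genes with 200 changed genes, the siRNA term recovered 65.4% of 2-fold and 98.8% of 4-fold changes and the line term 66.2% and 98.6%. Unchanged genes made up 10.78% and 9.16% of calls, above the nominal 5%. The simulated noise was independent between genes, and far fewer genes changed than the 39.2% that passed the line test here. These rates therefore need not hold for the calls in these data.

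Genes printed on all arrays were those at 1.5-fold in either line, up to 10 per direction past the line test, up to 5 per direction with the largest difference shared by both lines, the DNA methyltransferase genes, and paralog pairs past the line test in opposite directions, with up to 4 other chromatin regulators per comparison; further members were chosen after their values were seen. Alternatives were other filters, means over probe sets, a loess correction (fraction 0.3), quantile normalization, dropping probe sets of the _s_at and _x_at kinds, 16 added on the linear scale, a 2-fold threshold, other limma models and leaving out arrays. Raising values to background and subtracting length quartile medians were added after the data were seen. Protein sequences were not used here.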

Additional observations from a re-analysis of the deposited data

Results flagged for a closer look

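Genes at 1.5-fold or more in HCT116 whose difference had the opposite sign in Caco-2 were singled out, and the difference between the lines was not tested, since each group held 1 array. In HCT116, 9.18% of all expressed genes were lower at that fold and 4.36% higher. The share of all genes meeting both conditions is not given here, so the number singled out cannot be set against it. DNMT3A stood at -1.27 in HCT116 and 0.15 in Caco-2, CREBBP at -1.07 and 0.08, ARID1A at -0.78 and 0.08, SETD2 at -0.75 and 0.15, and DAXX at -0.59 and 0.06. Other settings ended some of these calls. DNMT3A stood at -0.40 with background in place of its lowest value, and CREBBP at -0.17 and SETD2 at -0.24 without _s_at and _x_at probe sets. DAXX stood at -0.32 to -0.58 without those probe sets, after quantile normalization, the loess correction or adding 16, and with length quartile medians subtracted. With the mean of all probe sets, ARID1A stood at -0.56, SETD2 at -0.34 and DAXX at -0.44. The Caco-2 values of all 5 were small, so their sign rests on differences of at most 0.15. Groups of 1 array allow no check for an outlying sample.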

How the results depend on the processing

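In Caco-2 the count of genes at 1.5-fold or more was 1 under every other setting except the mean of all probe sets and the 2-fold threshold, which gave 0. In HCT116 it was 6 to 9 except with the mean of all probe sets, 3, and the 2-fold threshold, 2. The shared siRNA difference held 1 gene after quantile normalization and 1 after the loess correction, in place of 0. The count past the line test was 16 after quantile normalization and 20 after the loess correction, in place of 10. In all, 5237 of 11166 and 5249 of 11164 genes passed there, against 4373 of 11165. For DNMT3A in the line test the limma adjusted p was 3.55e-18 and 3.19e-25 under these settings, against 0.00198 in the main fit. With 1 residual degree of freedom, values that small rest on variance shared over genes, so calls under these settings are weak. The main fit shares variance over genes as well. At 2-fold or more, 4 genes differed between lines on the control siRNA arrays alone and 9 on the BORIS siRNA arrays alone, all lower in HCT116. Among the 9, DNMT3A and EP300 had HCT116 values at background, so the size of their differences is uncertain. The share of all genes at that fold is not given here, so these counts cannot be set against it. Leaving out each array in turn without the siRNA block, where the line with 1 array was assumed to vary like the other, gave 4 to 22 genes. The fits held cell line or siRNA as a block, and without it the counts were 0 for the siRNA and 10 for the line; the labels number no replicates, so no block of replicate numbers was fitted. The medians of the genes kept their sign in both lines under every alternative run. The counts do not say which genes: of the 10, KMT2E lost its call without a filter (limma adjusted p = 0.0859), with the olfactory receptor filter (0.0577) and without trend (0.0604), SMARCA4 without a filter (0.0645) and without trend (0.0533). SUV39H1 lost its call without _x_at and _s_at probe sets (0.319). DNMT3A had no value in the line test with the mean of all probe sets, since that mean lay below the array median. Signal at background leaves TET1 and KDM6B without a difference, and the size of the EP300 and DNMT3A line differences uncertain.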

Other observations

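Counted by probe set in place of gene, 139 probe sets of the chromatin regulator genes were at or above the array median in Caco-2, and 102 were higher with BORIS siRNA, where 53.4% of all such probe sets were. There 5 were higher at 1.5-fold or more, where 3.11% of all were, and 0 lower, where 1.03% were. In HCT116, 84 of 127 were lower, where 54.5% of all were, and 19 were lower at 1.5-fold or more, where 8.85% of all were, and 3 higher, where 4.94% were. Probe sets of 1 gene share its transcripts and are not independent.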
